A study of Mus musculus with 19 samples.

Results

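The 10 genes described here belong to the NF-kB pathway or are classical targets of it: the inhibitors and feedback genes Nfkbia, Nfkbiz and Tnfaip3, the transcription factor subunits Rela and Rel, the cytokines Tnf, Il1b and Csf1, and the adhesion molecules Vcam1 and Icam1. They were listed by name, chemokines left out, and were looked up by symbol in the 3 expression tables of the series, which together hold 6849 genes. All 10 had a row among the 6376 genes of the astrocyte table. The microglia table, with 3067 genes, had rows for 9 of them and none for Rel. The monocyte table, with 3776 genes, had rows for 7 of them and none for Csf1, Vcam1 or Rela. Every one of these rows passed the filter on low values, so all 10, 9 and 7 genes were tested.

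The libraries come from female wild type C57Bl/6 mice aged P85 (postnatal day 85) with experimental autoimmune encephalomyelitis (EAE), a model of multiple sclerosis in which immunization against myelin causes inflammation of the central nervous system. EAE was induced with MOG35-55, a peptide of a myelin protein, at 25 µg per mouse in CFA (complete Freund's adjuvant). Before that the mice were transduced in the brain with pLenti-Gfap-GFP-shXbp1 (shXbp1), a hairpin aimed at the transcription factor gene Xbp1, or with pLenti-Gfap-GFP-shScramble (shScrmbl), the non-targeting control. Both lentiviruses carry GFP and use the promoter of Gfap, an astrocyte gene, so microglia and monocytes were not the cells aimed at. The sorted cells gave 4 shXbp1 and 4 shScrmbl libraries of astrocytes, 3 and 4 of microglia and 2 and 2 of monocytes, made by 3′ digital gene expression (sequencing of transcript ends), and the labels give each nervous system as that of a single mouse. No group had a mouse without EAE or without a lentivirus, and the labels state neither whether astrocytes were selected for GFP nor whether same-numbered libraries of different cell types share a mouse.

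NF-kB dimers such as those of RelA (Rela) and c-Rel (Rel) are held in the cytoplasm by inhibitors of the IkB family until signals from cytokine or Toll-like receptors lead to the destruction of the inhibitor. The freed dimers bind kB sites and switch on inflammatory genes together with genes that end the response: Nfkbia encodes IkB alpha, which removes NF-kB from DNA, Tnfaip3 encodes the ubiquitin-editing enzyme A20, and Nfkbiz encodes IkB zeta, a nuclear protein that takes part in switching on a second set of targets. In inflamed nervous tissue both glia and entering leukocytes use this pathway, and the levels of its feedback genes are often read as a sign of recent activation.

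NF-kB reaches its targets through kB sites, and the 4 promoters of these genes that hold a match to the kB consensus are printed here to show what such a match looks like in them. RefSeq gives a promoter window of 300 bases (250 before and 50 after the start) on GRCm38.p6, the build also called mm10, for 8 of the 10 genes. Nfkbiz and Vcam1 have no entry in the table used. The consensus was GGGRNNYYCC, with R for A or G, Y for C or T and N for any base. A match on either strand stood in a window of 4 of the 8 genes, which had 9 windows together. Counted by window and not by gene, 8.46% of all 32851 windows held a match. The 250 bases before the start follow from 5′ to 3′ on the gene's strand, with matches in capitals.
Nfkbia, chr12:55492648-55492897, minus strand: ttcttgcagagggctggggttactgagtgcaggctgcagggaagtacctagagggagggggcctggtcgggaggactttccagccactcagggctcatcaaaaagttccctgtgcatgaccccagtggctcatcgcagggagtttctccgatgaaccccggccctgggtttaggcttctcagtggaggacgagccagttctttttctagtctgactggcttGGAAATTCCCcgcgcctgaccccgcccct
Tnfaip3, chr10:19015411-19015660, minus strand: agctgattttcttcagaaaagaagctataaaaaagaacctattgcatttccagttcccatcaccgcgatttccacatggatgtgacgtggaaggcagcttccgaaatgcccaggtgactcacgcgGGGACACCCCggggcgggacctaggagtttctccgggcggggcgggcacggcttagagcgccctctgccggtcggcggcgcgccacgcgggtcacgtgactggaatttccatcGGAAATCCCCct
Rel, chr11:23770970-23771219, minus strand: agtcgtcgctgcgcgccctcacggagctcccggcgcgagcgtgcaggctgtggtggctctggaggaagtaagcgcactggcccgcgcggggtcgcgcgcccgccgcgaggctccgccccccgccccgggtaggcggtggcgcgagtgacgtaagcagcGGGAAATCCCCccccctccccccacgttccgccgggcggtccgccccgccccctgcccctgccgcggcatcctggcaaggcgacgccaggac
Csf1, chr3:107760470-107760719, minus strand: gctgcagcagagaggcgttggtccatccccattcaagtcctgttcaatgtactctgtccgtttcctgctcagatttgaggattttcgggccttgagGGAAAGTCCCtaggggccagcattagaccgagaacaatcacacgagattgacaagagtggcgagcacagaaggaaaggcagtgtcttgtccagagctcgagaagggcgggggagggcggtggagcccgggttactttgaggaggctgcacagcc
The Nfkbia match began 29 bases before the start. Tnfaip3 had matches 125 and 12 bases before its start, the first of them readable on both strands, and a further window of Tnfaip3 had none. In Rel, overlapping matches began 92 and 91 bases before the start, and in Csf1 the match began 154 bases before it. For Il1b, Icam1, Tnf and Rela the letters of the consensus were not in the window, which says nothing about binding elsewhere. The series holds no measurement of binding.

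Values are given as the authors' normalized signal, which in each library came in whole multiples of a single step, the worth of 1 count. Depth was uneven: astrocyte libraries held 32842 to 302003 counts, microglia 10039 to 122002 and monocytes 15654 to 112676, so that 1 count was worth a signal of 4.22 to 27.6, 9.33 to 76.0 and 9.11 to 50.6 in the 3 cell types. In the shallowest library of each, a gene at 0 may have had up to 82.7, 228 and 152, taking 3 counts as the limit, which covers counting error only. Astrocyte markers were present in astrocytes (12 of 15 with a row, Clu the highest at 887 to 1896), although Gfap had no row in any table. They summed to 3143 to 3941 in shXbp1 and 2387 to 3355 in shScrmbl astrocytes. Markers of ependyma and choroid plexus (10 of 11 with a row) were far higher in the same libraries, at 148780 to 274770 in shXbp1 and 212800 to 309330 in shScrmbl, and Ttr, a choroid plexus gene, made up 14.2% to 26.7% of all counts. The libraries are called astrocytes after their labels, and the part of these transcripts in the results was not tested. All 16 microglia markers were measured in microglia, with a summed signal of 11384 to 19160, and 13 of 15 monocyte and macrophage markers in monocytes. Of 15 endothelial and mural markers, which matter for Vcam1 and Icam1, 3 had a row in astrocytes (Vtn, Itm2a and Slco1a4) and 1 in each other table, while Cldn5 and Pecam1 had none. Xbp1, the targeted gene, had 34.1, 52.9, 31.2 and 79.7 in shXbp1 astrocytes and 20.1, 71.7, 79.9 and 27.6 in shScrmbl astrocytes. These groups overlapped, and the labels are taken as they stand.

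In astrocytes no NF-kB gene passed a test, and by edgeR the direction of 5 of them (Nfkbiz, Tnfaip3, Tnf, Il1b and Icam1) changed without a single control library, shScrmbl replicate 2. By limma on log2(signal + 1), 7 of the 10 were higher and 3 lower in shXbp1 astrocytes, with a median log2 difference of 0.21 against 0.42 over all 6366 genes tested, of which 68.2% were above 0. By edgeR's quasi-likelihood test on recovered counts, 2 were higher and 8 lower, with a median of -0.59 against 0.05 and 53.2% of all genes above 0. Without shScrmbl replicate 2, edgeR gave 7 higher and 3 lower, with a median of 0.65 against 0.18 over all genes. None of the 10 had an adjusted p under 0.05 by limma (0.00% of all genes tested), by edgeR (0.0157%) or by DESeq2 (0.00%), and none had groups that did not overlap, as 3.16% of all genes did. At an unadjusted p under 0.05 there were 0 of the 10 by limma, against 4.68% of all genes, and 2 by edgeR, Nfkbiz and Tnf, against 6.57%.

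**Figure D1:**
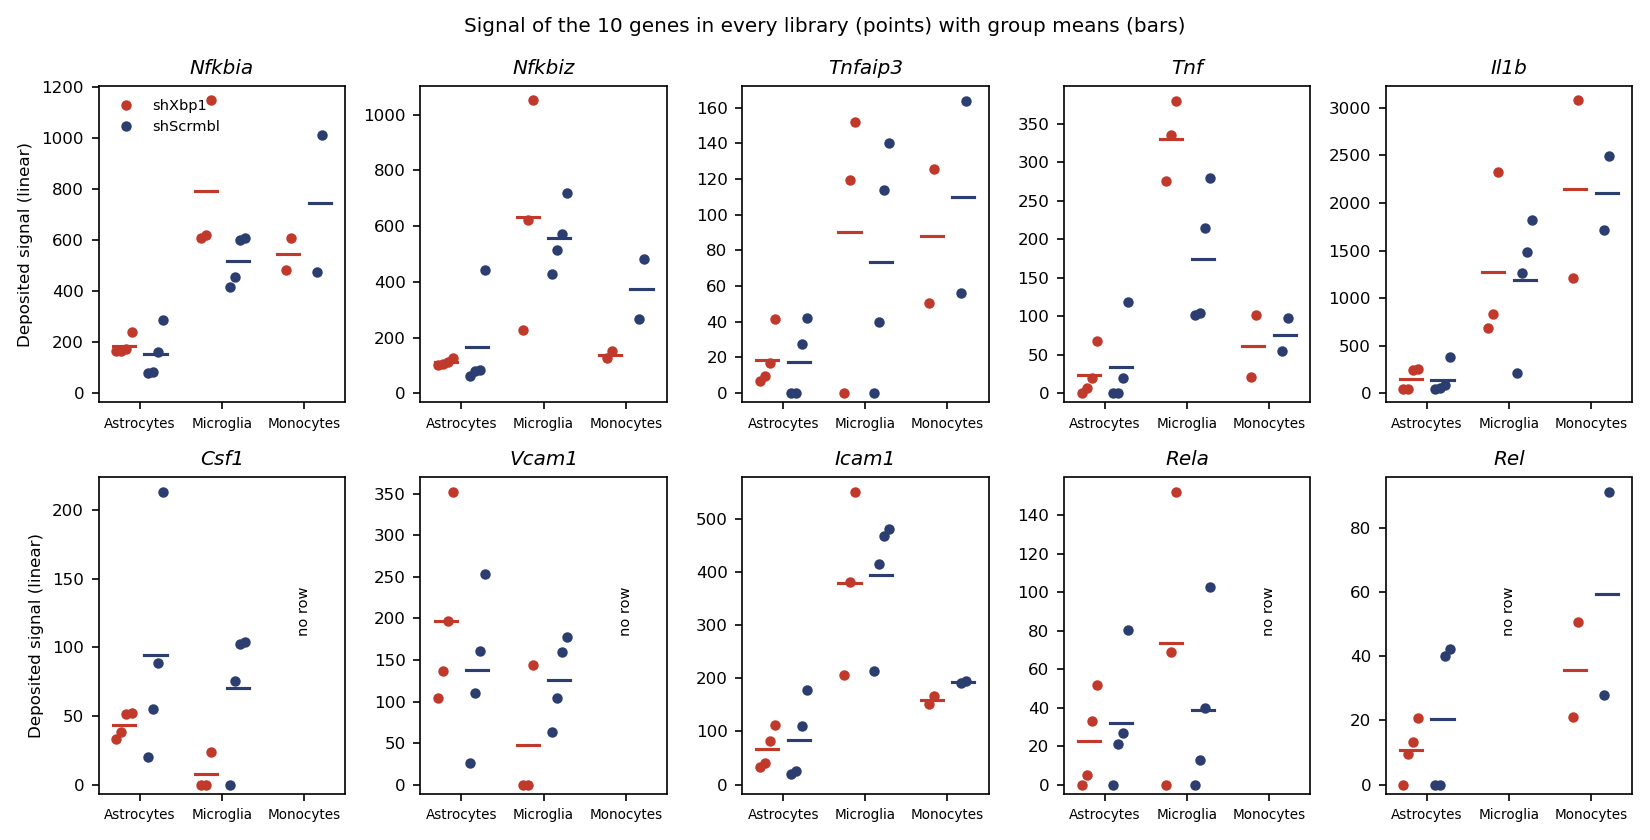
Deposited signal (linear scale) of the 10 genes in every library, sorted within each group, with shXbp1 left of shScrmbl in each cell type and bars at the group means. In astrocytes 1 shScrmbl library stood above all others for Nfkbiz (443) and Il1b (384), while Nfkbia was higher in every microglia (415 or more) and monocyte library (475 or more) than in any astrocyte library (287 or less).

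The feedback genes were led by Nfkbia, which had 239, 173, 167 and 166 in shXbp1 astrocytes and 80.2, 287, 160 and 82.7 in shScrmbl astrocytes. All 4 shXbp1 libraries lay above 3 of the 4 shScrmbl libraries and below the fourth, which was replicate 2. The means were 186 ± 35.2 in shXbp1 and 152 ± 96.9 in shScrmbl astrocytes (SD, n = 4 each), and limma's log2 difference was 0.47 ± 0.44 (SE, adjusted p = 0.838), so that folds from 0.736 to 2.62 lay within its 95% interval. Nfkbiz had 102, 111, 104 and 126 in shXbp1 astrocytes, against 60.2, 443, 79.9 and 82.7 in shScrmbl astrocytes. Here, too, each shXbp1 library lay above 3 shScrmbl libraries and below replicate 2. Those 3 shScrmbl libraries, replicates 1, 3 and 4, held only 4, 6 and 3 counts of Nfkbia and 3, 3 and 3 of Nfkbiz. edgeR put Nfkbiz at -0.89 (unadjusted p = 0.0493, adjusted p = 0.756). Without shScrmbl replicate 2 it stood at 0.57 (adjusted p = 0.995). Tnfaip3 rested on 8 counts in shXbp1 and 11 in shScrmbl astrocytes, of which 10 were in replicate 2.

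The cytokine genes overlapped more between viruses, and shScrmbl replicate 2 was the highest library for Tnf and Il1b. Tnf, which encodes the inflammatory cytokine TNF, had 68.2, 19.2, 0 and 6.64 in shXbp1 astrocytes and 20.1, 118, 0 and 0 in shScrmbl astrocytes. Of its 29 shScrmbl counts, 28 were in replicate 2. edgeR gave Tnf -1.68 with all libraries (unadjusted p = 0.0232, adjusted p = 0.696) and 1.01 without that library (adjusted p = 0.995). Il1b encodes interleukin-1 beta, a cytokine made mainly by myeloid cells. Its signal was 239, 255, 41.6 and 46.5 in shXbp1 astrocytes and 40.1, 384, 53.3 and 82.7 in shScrmbl astrocytes. The shXbp1 libraries fell into a high and a low pair, and the groups overlapped. edgeR's log2 difference for Il1b was -0.32 (adjusted p = 0.962), and without shScrmbl replicate 2 it was 1.28 (unadjusted p = 0.0331, adjusted p = 0.926). Csf1, the growth factor that microglia and macrophages need through its receptor Csf1r, was highest in another library, shScrmbl replicate 3. It had 51.2, 38.5, 52.0 and 33.2 in shXbp1 astrocytes, against 20.1, 88.6, 213 and 55.2 in shScrmbl astrocytes, with a fitted edgeR difference of -1.09 (adjusted p = 0.761) with all libraries. Without shScrmbl replicate 3 it was -0.68 (adjusted p = 0.836), and limma's difference was -0.11 in place of -0.65, while without shScrmbl replicate 2 edgeR gave -1.14 (adjusted p = 0.974).

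Of the adhesion molecules, which let leukocytes attach to endothelium and glia, Vcam1 had 136, 197, 104 and 352 in shXbp1 astrocytes and 160, 253, 26.6 and 110 in shScrmbl astrocytes. Its means were 197 ± 110 in shXbp1 and 138 ± 94.7 in shScrmbl astrocytes (SD, n = 4 each), with limma at 0.75 ± 0.59 (SE, adjusted p = 0.824) and edgeR at 0.34 (adjusted p = 0.940). With 185 counts it was the best counted of the 10 genes in astrocytes. Icam1 had 34.1, 81.8, 41.6 and 113 in shXbp1 astrocytes and 20.1, 177, 26.6 and 110 in shScrmbl astrocytes, and edgeR placed it at -0.50 with all libraries and at 0.56 without shScrmbl replicate 2 (adjusted p = 0.914 and 0.995). The subunit genes were barely counted. Rela had 11 counts in shXbp1 and 10 in shScrmbl astrocytes, and Rel had 6 in shXbp1 and 12 in shScrmbl, each with libraries at 0 in both groups.

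Astrocyte shScrmbl replicate 2 was also the deepest library, with 302003 counts, and it held the most transcripts of myeloid cells. The 16 microglia markers, all measured, summed to 1280 to 1983 in shXbp1 astrocytes and to 5056 in shScrmbl replicate 2, against 1012 to 1765 in the other 3 shScrmbl libraries, where 1 to 5 of the markers were at 0. The monocyte and macrophage markers (7 of 15 with a row) summed to 324 to 885 in shXbp1 astrocytes, to 4567 in shScrmbl replicate 2 and to 201 to 1038.5 in the other shScrmbl libraries. Their part in the differences above was not tested. In sorted bulk samples a change in the number of cells of a type and a change in RNA per cell cannot be told apart.

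**Figure D2:**
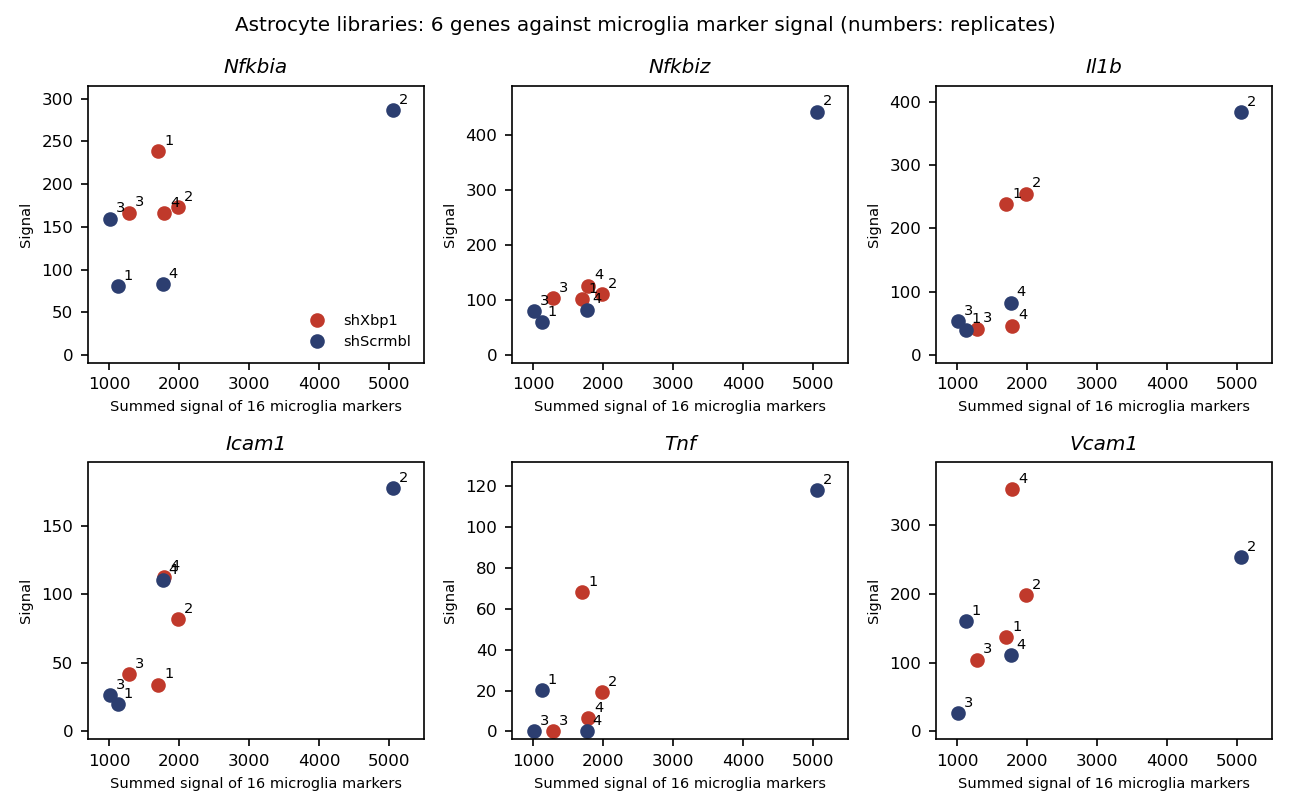
Signal of 6 genes (vertical axes, linear) against the summed signal of 16 microglia markers (horizontal axes) in the 8 astrocyte libraries, with the replicate number beside each point, shXbp1 in red and shScrmbl in blue. shScrmbl replicate 2, at 5056 on the horizontal axis, was the highest library for Nfkbia, Nfkbiz, Il1b, Icam1 and Tnf, and for Vcam1 it lay below shXbp1 replicate 4.

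In microglia the feedback gene Nfkbia and the cytokine gene Tnf had higher means in shXbp1 mice, and neither passed a test. Means were also higher for Nfkbiz, Tnfaip3, Il1b and Rela, and lower for Csf1, Vcam1 and Icam1. Nfkbia had 608, 621 and 1149 in shXbp1 microglia and 415, 454, 607 and 600 in shScrmbl microglia. The lowest shXbp1 library (608, from 8 counts) was above the highest shScrmbl library (607) by far less than 1 count, worth 76.0 there. Nfkbia was the only gene of the 9 whose groups did not overlap, where 7.24% of all 3066 genes did not and 2.32% did not with shXbp1 higher. Its means were 793 ± 309 in shXbp1 and 519 ± 98.7 in shScrmbl microglia (SD, n = 3 and 4), with limma at 0.56 ± 0.40 (SE, adjusted p = 0.814) and edgeR at 0.68 (adjusted p = 0.925). Without shXbp1 replicate 3, which held 48 of the 65 shXbp1 counts, edgeR gave 0.22 (adjusted p = 0.979). Without any other single library it gave 0.60 to 0.83. Tnf had 380, 276 and 335 in shXbp1 microglia, against 104, 101, 215 and 280 in shScrmbl microglia. A single shScrmbl library, replicate 4, reached into the range of the shXbp1 libraries. These values rested on 5, 4 and 14 counts in shXbp1 and on 2, 8, 23 and 7 in shScrmbl microglia. Tnf averaged 330 ± 52.2 in shXbp1 and 175 ± 87.8 in shScrmbl microglia (SD, n = 3 and 4). limma gave 1.04 ± 0.51 (SE, unadjusted p = 0.0489, adjusted p = 0.804), edgeR 0.92 (adjusted p = 0.900), and folds from 1.004 to 4.23 lay within limma's 95% interval.

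The other 7 genes in microglia overlapped between viruses, and several were close to the limit of counting. Vcam1 was, with Tnf, 1 of 2 among the 9 genes with an unadjusted limma p under 0.05, against 5.41% of all genes, and edgeR gave 0 of the 9, against 5.48%. It had 0, 0 and 144 in shXbp1 microglia and 104, 63.1, 177 and 160 in shScrmbl microglia, and limma's value was -4.49 (unadjusted p = 0.0434, adjusted p = 0.804). The shXbp1 libraries at 0 were replicates 1 and 2, where a count of 0 allows a signal of up to 228 and 207, above every shScrmbl value, and edgeR on counts gave -0.61 (adjusted p = 0.996). That value was -5.50 (adjusted p = 0.684) without shXbp1 replicate 3, which held all 6 shXbp1 counts, and -0.23 (adjusted p = 0.997) without shScrmbl replicate 3. Without shXbp1 replicate 1 or 2 it was -0.37 or -0.27, and without shScrmbl replicate 2 it was -0.94. Il1b had 684, 828 and 2322 in shXbp1 microglia and 208, 1262, 1820 and 1480 in shScrmbl microglia, Nfkbiz had 228, 621 and 1053 in shXbp1 against 571, 429, 513 and 720 in shScrmbl microglia, and in both the shXbp1 libraries spread around the shScrmbl ones. Icam1 averaged 379 ± 172 in shXbp1 and 394 ± 123 in shScrmbl microglia (SD, n = 3 and 4; limma adjusted p = 0.996). Csf1 had 1 count in all shXbp1 microglia libraries and 19 in shScrmbl ones, a pooled ratio of 0.175 with a 95% counting interval from 0.00421 to 1.10. Tnfaip3 had 7 counts in shXbp1 and 25 in shScrmbl microglia, and Rela 3 in shXbp1 and 13 in shScrmbl.

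For the 9 genes together limma gave 4 higher and 5 lower in shXbp1 microglia, with a median of -0.05 against -0.39 over all genes (34.5% above 0), and edgeR gave 5 higher and 4 lower, with a median of 0.13 against -0.09. None was called by limma (0.00% of all genes), edgeR (0.391%) or DESeq2 (0.00%). By edgeR 44.6% of all genes were above 0. Markers of other myeloid cells differed between the same libraries: the monocyte and macrophage markers (13 of 15 with a row) summed to 2128 to 8486 in shXbp1 microglia and to 5346 to 26070 in shScrmbl microglia, while the microglia markers summed to 11384 to 19153 in shXbp1 and to 12561 to 19160 in shScrmbl microglia. Between 2 and 4 of the monocyte and macrophage markers were at 0 in each shXbp1 library and up to 2 in a shScrmbl one. The shXbp1 libraries were also the shallower group, with 10039 to 46586 counts in shXbp1 against 17892 to 122002 in shScrmbl. The ranges of these sums and of depth overlapped between the viruses. Other markers did not overlap: Vtn, the single endothelial and mural marker with a row, had 76.0 to 207 in shXbp1 against 0 to 51.9 in shScrmbl microglia. The 2 oligodendrocyte markers measured summed to 670 to 1518 in shXbp1 against 345 to 520 in shScrmbl microglia, and the 5 lymphocyte markers to 152 to 276 in shXbp1 against 280 to 727 in shScrmbl. Across the 7 libraries the Spearman correlation of Nfkbia with Vtn was 0.643 and that of Tnf 0.321. With the summed monocyte and macrophage markers it was -0.357 for Nfkbia and -0.786 for Tnf, and with the microglia markers 0.214 and 0.607. With the counts of the library the values were -0.179 and -0.500. The points share depth and cell mix. The part of any of these in the values of Nfkbia and Tnf was not tested.

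In monocytes 7 genes were measured in 2 libraries of each virus, and all 7 had a limma difference below 0. The median was -0.36, against -0.42 over all 3775 genes tested, where 34.2% of genes were above 0. edgeR gave 1 higher and 6 lower, with a median of -0.48 against -0.17 and 43.1% of all genes above 0, and without shScrmbl replicate 2 it gave 4 higher and 3 lower. No member was among the 101 genes that limma called (2.68% of all genes), of which 99 were at 0 in both shXbp1 libraries, nor was any called by edgeR (0.0265%) or DESeq2 (0.00%). At an unadjusted p under 0.05 there were 0 of the 7 by limma and by edgeR, against 4.77% and 4.66% of all genes.

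Nfkbiz had the largest of these differences. It was at 152 and 126 in shXbp1 monocytes and at 266 and 483 in shScrmbl monocytes, from 9 counts in shXbp1 and 72 in shScrmbl. The shXbp1 libraries lay below both shScrmbl libraries, and limma gave -1.37 ± 0.72 (SE, adjusted p = 0.887), edgeR -1.47 (adjusted p = 0.922). Icam1 also did not overlap, with 152 and 167 in shXbp1 monocytes and 196 and 191 in shScrmbl monocytes, a limma difference of -0.28 (adjusted p = 0.932). Such separation, 2 of the 7 genes here and both lower, was found for 34.9% of all genes and with shXbp1 lower for 25.0%. Nfkbia had 607 and 482 in shXbp1 monocytes and 475 and 1011 in shScrmbl monocytes. Il1b, the most abundant of the 7 by counts, had 1213 and 3078 in shXbp1 monocytes and 1719 and 2495 in shScrmbl monocytes, so that the shXbp1 pair enclosed the shScrmbl pair. Tnf, Tnfaip3 and Rel rested on 3, 7 and 2 counts in shXbp1 and on 13, 22 and 12 in shScrmbl monocytes. The monocyte and macrophage markers summed to 5561 and 17712 in shXbp1 libraries and to 23057 and 22655 in shScrmbl libraries, with 1 of 13 at 0 in shXbp1 replicate 1 and Lyz2 the highest. The 9 neutrophil markers measured summed to 293 to 354 in shXbp1 and 892 to 1076 in shScrmbl monocytes, the 8 lymphocyte markers to 4045 to 4732 in shXbp1 and 2495 to 3843 in shScrmbl, and 2 ependyma and choroid plexus markers to 5192 to 8039 in shXbp1 and 3745 to 4826 in shScrmbl. These sums did not overlap, and their part in the differences was not tested.

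**Figure D3:**
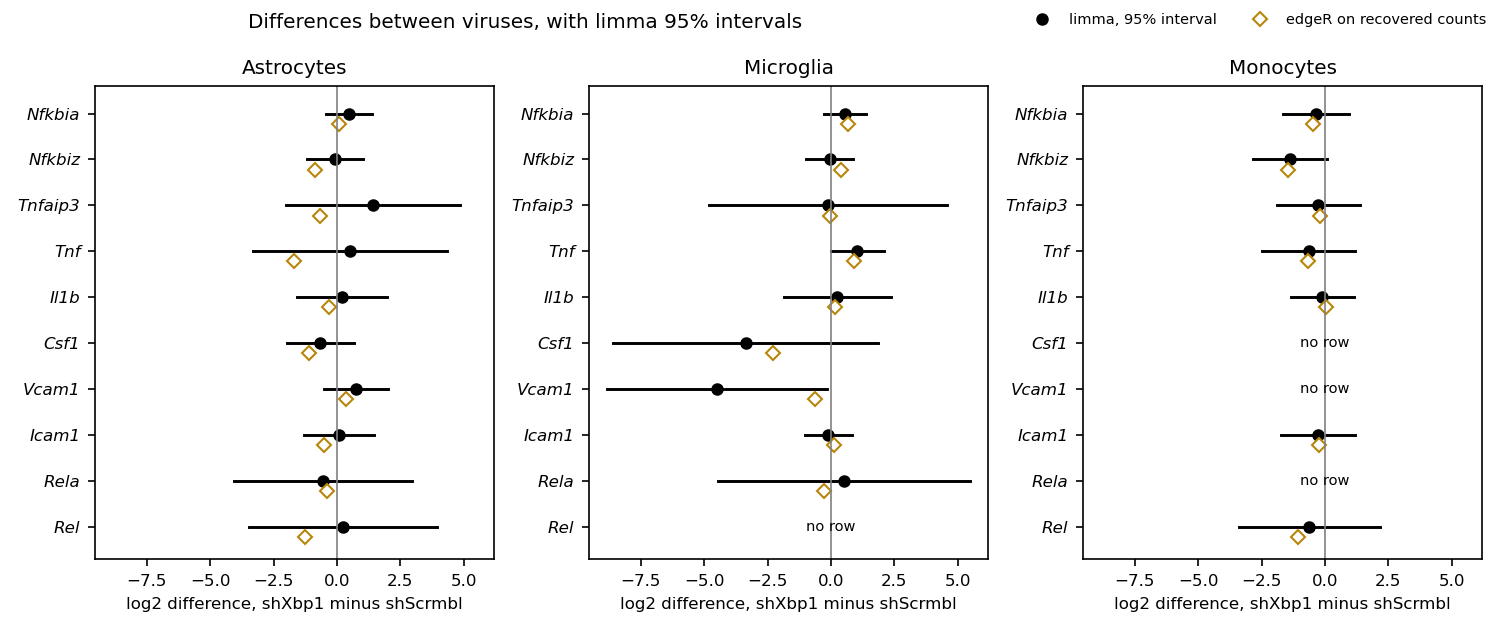
Difference between shXbp1 and shScrmbl (log2, horizontal axes, positive where shXbp1 is higher) for each gene and cell type, as limma estimates with 95% intervals (black) and edgeR estimates on recovered counts (open diamonds). All limma intervals include 0 except those of Tnf and Vcam1 in microglia, where the adjusted p was 0.804, and in astrocytes the edgeR estimates lie left of the limma ones for 9 of the 10 genes.

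Nfkbia and Il1b stood lower in astrocytes than in both myeloid cell types. Vcam1 and Csf1, which had no row in monocytes, had higher means in astrocytes than in microglia. The 3 tables were normalized separately, so these levels stand side by side with no test. Nfkbia averaged 644 ± 252 in monocytes (SD, n = 4), 636 ± 241 in microglia (n = 7) and 169 ± 69.9 in astrocytes (n = 8). Its microglia and monocyte ranges overlapped, and its lowest microglia library, at 415, was above its highest astrocyte library, at 287. Il1b had means of 2126 ± 825 in monocytes, 1229 ± 720 in microglia and 143 ± 132 in astrocytes, where the microglia range overlapped both others and those of monocytes and astrocytes did not meet. Nfkbiz ran in another order, with 591 ± 257 in microglia, 256 ± 163 in monocytes and 139 ± 125 in astrocytes, all neighbours overlapping.

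Tnf and Icam1 were highest in microglia. Tnf averaged 242 ± 108 there, 68.6 ± 38.2 in monocytes and 29.0 ± 42.5 in astrocytes, with 3 of 8 astrocyte libraries at 0 and overlap at the edge between microglia and monocytes. Icam1 averaged 388 ± 132 in microglia and 176.5 ± 20.7 in monocytes, without overlap, and 75.6 ± 55.2 in astrocytes, whose range reached that of monocytes. Vcam1 averaged 168 ± 100 in astrocytes and 92.6 ± 73.6 in microglia, and Csf1 averaged 69.0 ± 61.6 and 43.7 ± 48.7. Both pairs of ranges overlapped and differed by less than 1 SD. Tnfaip3 (99.0 in monocytes, 80.8 in microglia and 18.1 in astrocytes), Rela (53.8 in microglia and 27.3 in astrocytes) and Rel (47.6 in monocytes and 15.8 in astrocytes) were low everywhere, with overlapping neighbours.

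Counts set against those of Nfkbia in the same library do not depend on how the tables were scaled. They are a description, with no test between cell types. For each count of Nfkbia there were 3.16 counts of Il1b in monocytes (pooled, 95% counting interval 2.66 to 3.75), 2.40 in microglia (2.02 to 2.86) and 1.02 in astrocytes (0.825 to 1.27). Single libraries ran from 2.0 to 6.39, from 0.500 to 3.0 and from 0.250 to 1.47, so that monocytes and astrocytes did not overlap while microglia overlapped both. Nfkbiz had 0.450 counts per Nfkbia count in monocytes (0.342 to 0.588), 0.921 in microglia (0.745 to 1.14) and 1.0 in astrocytes (0.805 to 1.24). The astrocyte value rested on shScrmbl replicate 2, with 105 of the 172 counts, and was 0.644 without it. The medians over libraries were 0.369 in monocytes, 0.944 in microglia and 0.694 in astrocytes, so that astrocytes then stood below microglia, and the library ranges of 0.250 to 0.559, 0.375 to 1.38 and 0.429 to 1.54 overlapped. Without the same library the Il1b ratio in astrocytes was 0.817, and without shScrmbl replicate 2 that of monocytes was 4.26. Vcam1 had 1.08 counts per Nfkbia count in astrocytes (0.869 to 1.33) and 0.190 in microglia (0.129 to 0.273), and its library ratios were 0.167 to 2.12 and 0 to 0.292. For Tnf the pooled ratios were 0.0889 in monocytes, 0.333 in microglia and 0.221 in astrocytes. The astrocyte one was 0.0962 without shScrmbl replicate 2, and the medians over libraries were 0.110 in monocytes, 0.354 in microglia and 0.0756 in astrocytes, which puts astrocytes last. For Icam1 the pooled ratios were 0.256, 0.624 and 0.512, and the medians 0.299, 0.625 and 0.361, in the same order of cell types, with overlap between libraries of neighbouring cell types. The intervals cover counting error only, and the spread over libraries is wider.

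**Figure D4:**
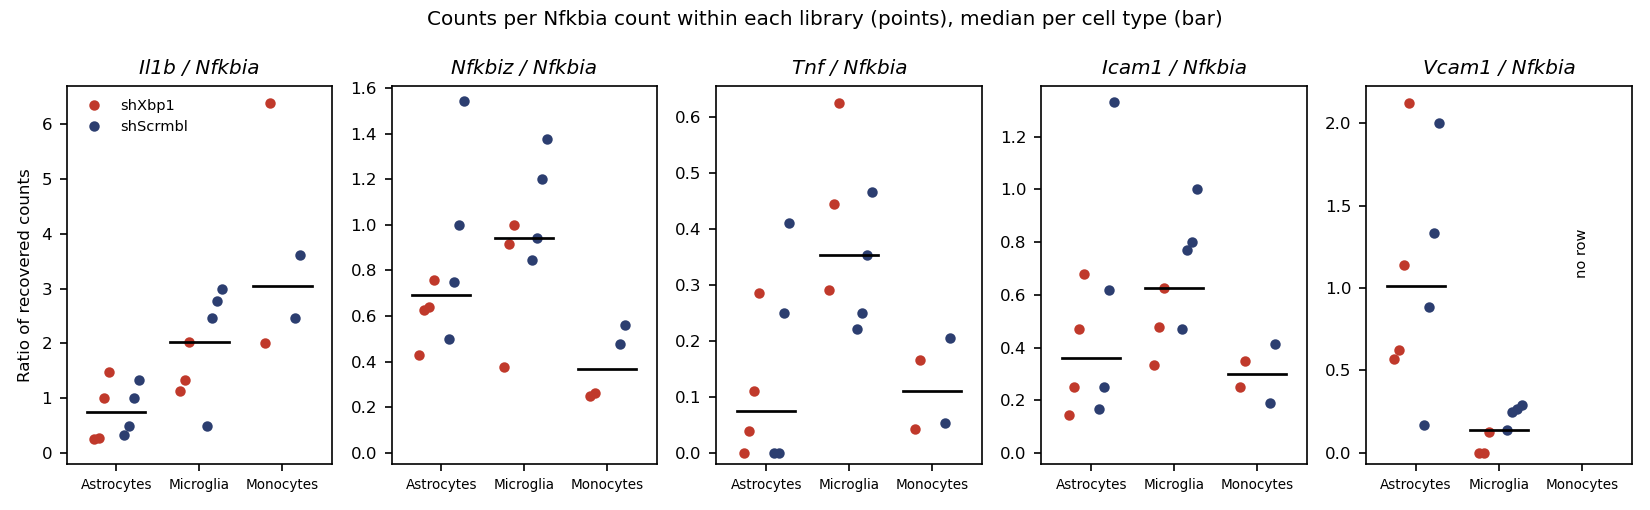
Recovered counts of 5 genes per Nfkbia count in the same library (vertical axes, linear), by cell type, with shXbp1 (red) left of shScrmbl (blue) and the median of each cell type as a bar. The Il1b ratio is lowest in astrocytes (0.250 to 1.47) and highest in monocytes (2.0 to 6.39), the Vcam1 ratio is higher in most astrocyte libraries than in any microglia library, and Vcam1 has no row in monocytes.

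Other genes of the pathway were taken from 4 lists: subunits, IkB proteins and the IKK kinase, receptors and adaptors, negative regulators, and other NF-kB induced genes. In astrocytes 39 of these genes were measured and none passed limma or edgeR. Of the 15 other induced genes there, edgeR put 2 higher and 13 lower (median -0.71, against 0.05 over all genes), and without shScrmbl replicate 2 it put 8 higher and 7 lower. For the 9 negative regulators it put 4 higher and 5 lower with all libraries, and 8 and 1 without that library. By limma with all libraries the 15 induced genes ran 9 higher and 6 lower, and the 9 negative regulators 8 and 1. The limma medians were 0.37 and 1.60, against 0.42 over all genes, of which 68.2% were above 0. Among genes with a mean signal of at least 50, the limma median of the negative regulators was -0.35. The 3 genes of highest mean signal in each list gave 12 genes, all with overlapping groups. Their edgeR differences ran from -1.24 (Plek, adjusted p = 0.669) to 0.40 (Stat3, adjusted p = 0.937) and their limma differences from -1.13 (Cd14, adjusted p = 0.824) to 2.22 (Dusp1, adjusted p = 0.824). Cd14 averaged 89.3 ± 100.5 in shXbp1 and 165 ± 146 in shScrmbl astrocytes, and Tirap, an adaptor of Toll-like receptors, 132 ± 16.6 in shXbp1 and 186 ± 114 in shScrmbl. The first gene of each list had these means: Ikbkg, the regulatory subunit of the IKK kinase, averaged 144 ± 22.7 in shXbp1 and 156 ± 58.1 in shScrmbl astrocytes, Irak1, a kinase of interleukin-1 and Toll-like receptors, 314 ± 33.6 in shXbp1 and 327 ± 158 in shScrmbl, Cyld, a deubiquitinase that limits the pathway, 175 ± 46.8 in shXbp1 and 163 ± 114 in shScrmbl, and Cflar, an inhibitor of caspase-8, 308 ± 26.4 in shXbp1 and 296 ± 160 in shScrmbl (SD, n = 4 each).

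In microglia 35 genes of the 4 lists were measured. edgeR called 1, against 0.391% of all genes, and limma 0, against 0.00%. Saa3, an acute-phase protein gene, averaged 472 ± 315 in shXbp1 and 1448 ± 714 in shScrmbl microglia (SD, n = 3 and 4), and fell by edgeR (-1.73, adjusted p = 0.0164) but not by limma (-1.67, adjusted p = 0.653). The edgeR adjusted p was 0.566, 0.223, 0.125 and 0.338 without shScrmbl replicate 2 or 3 or shXbp1 replicate 1 or 3, with a difference of -1.46 to -1.60. The negative regulators ran 1 higher and 5 lower by limma (median -0.85, against -0.39 over all genes) and 6 higher and 0 lower by edgeR (median 0.20, against -0.09), with none called by either. Cd14, a co-receptor of Toll-like receptor 4, averaged 1452 ± 1009 in shXbp1 and 1292 ± 705 in shScrmbl microglia, and Plek, which encodes the signalling protein pleckstrin, averaged 629 ± 152 in shXbp1 and 413 ± 140 in shScrmbl microglia.

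In monocytes 43 were measured and limma called 1, which is near the 2.68% of all genes it called, while edgeR called 0, against 0.0265%. The limma call was Zfp36, the gene of tristetraprolin, which destabilizes the mRNA of Tnf and other cytokines. It was at 0 in both shXbp1 libraries and at 69.9 and 63.7 in shScrmbl libraries (limma adjusted p = 0.00864, edgeR adjusted p = 0.922). Allowing 3 counts over the shXbp1 group gives a signal of 44.4, against 66.2 pooled over shScrmbl, which is 1.49-fold higher. That figure takes the 12 shScrmbl counts as exact and leaves out the spread between libraries, so it is no lower bound. In each shXbp1 library alone a count of 0 allows up to 152 and 62.8, and without shScrmbl replicate 1 or 2 the limma adjusted p was 0.995 or 0.992. Il1rn, the interleukin-1 receptor antagonist, had 202 and 1298 in shXbp1 monocytes, against 196 and 155 in shScrmbl monocytes (edgeR 2.20, adjusted p = 0.470). Its groups did not overlap, as those of 34.9% of all genes did not, and the high mean came from 1 library. Ikbkg had 202 and 230 in shXbp1 monocytes and 83.8 and 91.1 in shScrmbl monocytes (limma 1.29, adjusted p = 0.887), also without overlap. Irak1 was higher and Saa3 lower without overlap. By list, genes without overlap numbered 1 higher and 0 lower of 5 (subunits, IkB proteins and IKK kinase) and 2 and 2 of 10 (receptors and adaptors). They numbered 1 and 3 of 9 among the negative regulators and 0 and 5 of 19 among the other induced genes. Of all genes tested, 34.9% did not overlap, and 25.0% did not with shXbp1 lower. The 5 of 19 are near that last share.

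Across the 8 astrocyte libraries the genes whose levels ran most like Vcam1 were Zfyve26 (Spearman rho 0.976), Cldn2 (0.952) and Slc43a2 (0.952), out of 5780 genes with at least 20 counts. Cldn2 encodes a claudin found in choroid plexus epithelium. Across the 7 microglia libraries Il1b ran most like Rgs10 (rho 1.0) and Mrpl24 (0.991). Each point is a library, so these values share its depth and its mix of cells, and with so few libraries high values arise among so many genes. In monocytes 4 libraries left 158 genes tied with Il1b at rho 1.0, and none is named.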

How the data were processed

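RNA of sorted astrocytes, microglia and monocytes was profiled by 3′ digital gene expression, per the labels' protocols. For each cell type the authors deposited a table of normalized signal. BWA 0.7.10, limma 3.34.1 and mm10 appear in the submitters' processing notes without their roles, and the counter and the scaling are not given in the sources used here. All values above 0 (100%) were whole multiples of the worth of 1 count, within 0.01 of a count, so whole counts were recovered.

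The 3 tables were fitted one by one, shXbp1 over shScrmbl, without covariates. The main test was limma 3.58.1 (trend, robust) on log2 values with a pseudocount of 1. Genes were called at a Benjamini-Hochberg adjusted p under 0.05 among the 6366, 3066 and 3775 genes whose signal reached 1 in at least n libraries, n being the size of the smaller group. A fold on this scale depends on the pseudocount for low genes and is large where libraries are at 0: Vcam1 in microglia was -4.49 by limma and -0.61 by edgeR. edgeR 4.0.16 (quasi-likelihood, TMM) and DESeq2 1.42.0 were run on the recovered counts and called 1, 12 and 1 and 0, 0 and 0 genes in astrocytes, microglia and monocytes. R 4.3.3 and Python 3.11.15 were used, and the fits were tested on simulated data. There limma recovered 20%, 25% and 3% of 4-fold changes in astrocytes, microglia and monocytes, and edgeR 41%, 52% and 9%. Of 8-fold changes limma recovered 40%, 36% and 26%, and edgeR 73%, 71% and 39%. False calls numbered 0 in each cell type by limma and 6, 4 and 0 by edgeR. The counts were drawn gene by gene from edgeR's own fitted dispersions, so differences in cell mix between libraries were not simulated. The absence of false limma calls there does not vouch for the 101 limma calls in monocytes. Replicates are separate libraries, and no batch is named in the labels.

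The genes named are the 10 members, Xbp1, the 3 genes of highest mean signal in each of 4 pathway lists and any called, the 3 genes most like the best counted member, and the leading markers. Not every one of these is printed. The members and lists were chosen with earlier results of these data known. Coordinates and promoters are on GRCm38. Alternatives were other pseudocounts, filters, normalization and tests, a replicate block, and leaving out each library in turn.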

Additional observations from a re-analysis of the deposited data

Results flagged for a closer look

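In 4 of the 29 groups of 4 libraries examined for the 10 genes, 1 library stood far from the others by Dixon's criterion, where chance gives about 1 in 20. In shXbp1 astrocytes Nfkbia was 238.8 in replicate 1, with the next library at 173.2. In shScrmbl astrocytes replicate 2 stood apart for Nfkbiz (442.8, next 82.74), Tnf (118.1, next 20.06) and Il1b (383.7, next 82.74). That library also had the highest summed signal of microglia markers (5056) and the most counts (302003), and the part of either was not tested.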

How the results depend on the processing

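No adjusted p of any of the 10 genes or Xbp1 fell below 0.05 under the alternatives run, by limma, edgeR or DESeq2. Directions of uncalled genes did change, and the cause was not tested. In astrocytes the log2 difference turned round with a pseudocount of 10 for Rel (-0.22), with a pseudocount of 50 for Tnf (-0.086), Icam1 (-0.060) and Rel (-0.16), by edgeR for Tnfaip3 (-0.68), Tnf (-1.68), Il1b (-0.32), Icam1 (-0.50), Rel (-1.28) and Xbp1 (-0.083), by DESeq2 for Tnfaip3 (-0.35), Tnf (-1.13), Il1b (-0.17), Icam1 (-0.50), Rel (-1.19) and Xbp1 (-0.13), and after quantile normalization for Tnfaip3 (-0.82), Tnf (-1.47), Icam1 (-0.10), Rel (-1.76) and Xbp1 (-0.053). Leaving out 1 library at a time gave ranges that crossed 0 for Nfkbiz (-0.37 to 0.58), Tnf (-0.42 to 1.88), Il1b (-0.23 to 0.89), Icam1 (-0.42 to 0.61), Rela (-1.86 to 0.56), Rel (-0.67 to 1.20) and Xbp1 (-0.23 to 0.42), and by edgeR for Nfkbiz (-1.16 to 0.57) and Tnf (-2.41 to 1.01), each positive only without shScrmbl replicate 2. In microglia the direction turned with a pseudocount of 10 or 50 for Tnfaip3 (0.11 and 0.14), by edgeR for Nfkbiz (0.39), Icam1 (0.13) and Rela (-0.28), by DESeq2 for Nfkbiz (0.31), Tnfaip3 (0.15) and Icam1 (0.063), and after quantile normalization for Nfkbiz (0.030), Tnfaip3 (0.45) and Xbp1 (0.59). Without single libraries Nfkbiz ran from -0.54 to 0.56, Tnfaip3 from -1.72 to 2.25, Il1b from -0.46 to 0.60, Icam1 from -0.42 to 0.28, Rela from -0.89 to 2.74 and Xbp1 from -1.90 to 1.67. In monocytes Il1b turned by edgeR (0.054) and DESeq2 (0.084), and without single libraries Nfkbia ran from -0.90 to 0.19, Tnfaip3 from -1.03 to 0.51, Tnf from -1.76 to 0.46, Il1b from -0.77 to 0.57, Rel from -1.45 to 0.22 and Xbp1 from -0.27 to 0.998.

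Genes called numbered 0 in astrocytes by limma (298 at an unadjusted p under 0.05) and by DESeq2 (131), and 1 by edgeR. In microglia limma called 0 (166 at an unadjusted p under 0.05), with a pseudocount of 50 it called 1, after quantile normalization 6, and without single libraries 0 to 3, while edgeR called 12 and DESeq2 0 (62 at an unadjusted p under 0.05). The 101 monocyte calls of limma became 0 with a pseudocount of 10 or 50, with a mean signal of at least 50, after quantile normalization and by DESeq2, 1 by edgeR, and 0 to 1163 without single libraries (0 without either shScrmbl library, 488 and 1163 without shXbp1 replicate 1 and 2), where a lone library was taken to vary like the other group. Chosen after seeing the data, edgeR without single libraries called 1 to 12 genes in astrocytes (12 without shScrmbl replicate 1, 7 without shXbp1 replicate 2), 0 to 23 in microglia (23, 1 and 0 without shScrmbl replicates 1, 2 and 3, 1 and 5 without shXbp1 replicates 1 and 3) and 0 to 61 in monocytes (0 without either shScrmbl library, 61 and 29 without shXbp1 replicate 1 and 2). The number of the 10 genes lower by edgeR was 3 to 9 in astrocytes, and of those measured 2 to 6 in microglia and 3 to 7 in monocytes, with the lowest counts without shScrmbl replicates 2, 3 and 2.

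No pairing or batch is known for same-numbered libraries. Their deviations from the group means correlated at -0.069 to 0.057 in astrocytes, -0.026 to 0.035 in microglia and -0.116 in monocytes. In monocytes, with 2 libraries per virus, both numbers give the same value by construction. So few libraries cannot show whether a number stands for a shared batch. With the replicate block limma called 0, 0 and 112 genes, and Nfkbiz (0.082), Tnfaip3 (0.064) and Icam1 (0.020) turned round in microglia. These values equal those without shScrmbl replicate 4, which has no same-numbered partner and gives no information in the block. Crossing the monocyte numbers, added after seeing the data, gave 114 calls.

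Depth limits what could be seen. The 10 genes had between 1 and 397 counts per group, and 3 or fewer in the shXbp1 groups for Csf1 and Rela in microglia and for Tnf and Rel in monocytes. A p that misses the threshold does not show equal levels: limma's interval for Nfkbia in astrocytes held folds from 0.736 to 2.62, and for Tnf there folds from 0.101 to 20.4.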
